A study of Xenopus laevis with 74 samples.

Results

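The cadherins and protocadherins of Xenopus laevis were followed gene by gene while explanted blastula cells left the pluripotent state for 4 lineages. Members were the rows whose symbol starts with cdh and a digit or with pcdh, which leaves out the cadherin-related cdhr genes, and the L and S copies (homeologs) that this allotetraploid frog carries on its paired subgenomes were kept apart. The rule found 91 of 45656 rows of the count table. Of these, 61 had enough counts to be tested, among 27424 tested genes, and 30 did not. They comprise 9 type I classical cadherins, 26 type II classical cadherins, 10 other cadherins, 18 delta protocadherins, 20 clustered protocadherins and 8 other protocadherins. A mean of 10 TPM (transcript counts corrected for length and scaled to the library) in at least 1 of the 24 groups was reached by 19 of the 91 symbols of the TPM table, which holds pcdhga3.L in place of the pcdhga2 of the count table. These 19 are described one by one. The other 72 lay below it: 41 stayed under 1 TPM in all groups, and the highest group mean among the 72 was the 8.04 TPM of cdh15.L. That mean is of epidermal explants at stage 13, where the count table holds 1, 0 and 2 counts of cdh15.L, so the tables disagree on it.

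Cadherins are transmembrane proteins whose extracellular repeats bind calcium and, in most members, the same cadherin on the neighbouring cell. The classical type I members carry a cytoplasmic tail that binds beta-catenin, plakoglobin and p120-catenin and so ties the junction to actin, and which of them a cell carries is known to affect which cells it sorts with. Protocadherins lack that catenin-binding tail, adhere weakly, and are known in Xenopus for tissue separation and convergent extension (the papc and axial protocadherin genes) and for ectodermal adhesion (NF-protocadherin). In the frog the egg supplies C-cadherin (also EP-cadherin), listed here as cdh3, E-cadherin (cdh1) appears in the ectoderm during gastrulation, and N-cadherin (cdh2) is known for the neural plate.

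The explants were animal pole tissue cut from blastulae and taken at 6 stages, namely late blastula (stage 9), gastrula (stages 10, 10.5, 11 and 12) and neural plate (stage 13). Untreated explants became the epidermal lineage, 100 ng/uL Noggin (a BMP antagonist) was used for the neural lineage, 20 ng/uL BMP4/7 heterodimer for ventral mesoderm and 160 ng/uL Activin for endoderm. The doses carry the unit of the labels, while the methods of the study write the Noggin and Activin doses per mL, so the unit is in doubt. Each lineage and stage had 3 mRNA-seq libraries, except ventral mesoderm at stage 11 with 5, giving 74 in all. Each library pools explants, so a tissue that holds several cell types is read as 1 value, and fewer cells of a type and less RNA per cell cannot be told apart. Ventral mesoderm was sequenced on a HiSeq instrument and the other 3 lineages on a NextSeq instrument, so for that lineage the treatment and the sequencer cannot be told apart. Per the study's methods, the sequenced Noggin explants were kept in a medium low in calcium and magnesium. The BMP4/7 and Activin explants were kept in Marc's Modified Ringer's Solution. For the neural lineage the treatment and the medium therefore cannot be told apart. The study set stage 9 as time zero, with Activin and BMP4/7 given at that stage, and describes the replicates of the lineages as independent experiments. Libraries of different lineages thus differ in experiment as well as in treatment.

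The libraries held 11938338 to 23215739 counts. At stage 13 the summed TPM of epidermal markers was 3417 to 7004 in epidermal libraries, 227 to 598 in neural and 166 to 290 in endoderm. In ventral mesoderm it was 1513 to 3422, which overlapped the epidermal range. Neural markers reached 1007 to 2639 in neural libraries and at most 357 elsewhere, and endoderm markers 3488 to 4229 in endoderm and at most 437 elsewhere. Replicate 1 of neural stage 13 stood apart. Its mean correlation with the other libraries of its group was 0.860, its summed cement gland markers were 740 TPM against 35.3 and 21.1 TPM, its neural crest markers 10.6 against 160 and 83.3 TPM, and its skeletal muscle markers 4.91 against 297 and 39.4 TPM. Replicate 1 of ventral mesoderm at stage 13 had summed ventral mesoderm markers of 952 TPM against 1961 and 1777 TPM, and epidermal markers of 3422 against 2211 and 1513 TPM. Endoderm at stage 13 also carried markers of other cell types. Its summed notochord markers were 604, 110 and 215 TPM, against 18.4, 101 and 89.1 TPM in epidermal explants. Most of that endoderm sum was chrd, at a mean of 292 TPM. The marker not was lower in endoderm than in epidermal explants (means of 17.1 and 69.4 TPM), and shh was at 0.817 TPM in endoderm. Summed ventral mesoderm markers were 539, 345 and 343 TPM in endoderm, against 314, 312 and 311 TPM in epidermal explants. Most of that endoderm sum was ventx1.1, at a mean of 256 TPM. The means of tbxt were 10.6 and 7 TPM in endoderm and epidermal explants, those of wnt8a 42 and 2.03 TPM and those of msx1 85 and 203 TPM. Summed skeletal muscle markers were 40.9, 0.61 and 3.19 TPM, against 1.08, 2.3 and 3.66 TPM. Summed neural crest markers were 69.9, 54.7 and 76.6 TPM in endoderm, against 9.91, 27 and 21.4 TPM. Summed placode markers were 104, 57.6 and 72 TPM, against 23.1, 18.6 and 27.7 TPM. Cement gland and multiciliated cell sums were lower in endoderm than in epidermal explants. The endoderm sums of notochord, ventral mesoderm, skeletal muscle and placode markers were each highest in replicate 1. Without that replicate 37 members were called from stage 9 to 13 in endoderm, against 40 with it. The share of all genes called without it is not given. The remaining endoderm libraries held such markers as well, so the part of those markers in the calls was not tested. Results that move without one of these libraries are given with and without it. At ventral mesoderm stage 11 the replicate numbers of the count and TPM tables did not match each other, so TPM values are given there without reference to counts, and 1 of those 5 TPM libraries matched no count library above a correlation of 0.37.

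Changes were tested on the deposited counts with edgeR's quasi-likelihood test, fitted over all 27424 genes with Benjamini-Hochberg adjustment, and a gene is called at an adjusted p under 0.05. A log2 fold change is followed by its standard error, taken as the absolute change divided by the square root of the test's F value. It is approximate for members near 0 counts. Some comparisons also count members at an unadjusted p under 0.05. The backgrounds beside those counts are shares of adjusted calls, and the share of all genes at the unadjusted threshold is not given. Such counts are therefore not read as an excess. Counts were scaled by the trimmed mean of M-values (TMM), which sets the middle of the genes near no change. TPM are relative to the whole RNA pool instead: between stages 9 and 13 the median log2 ratio of 15992 genes was −1.0 in epidermal, −0.75 in neural, −1.02 in ventral mesoderm and −0.93 in endoderm explants in TPM, and −0.18, −0.19, −0.13 and −0.23 in TMM-scaled CPM. A flat TPM level can therefore accompany a positive log2 fold change, and both are printed.

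The summed level of the family was higher at stage 13 than at stage 9 in all 4 lineages, and other members led at the end than at the start. At stage 9 the members summed to 513 ± 84.7 TPM in epidermal, 468 ± 44.6 in neural, 463 ± 34.9 in ventral mesoderm and 507 ± 61.5 in endoderm explants (SD, n = 3), and at stage 13 to 1016 ± 98.9, 955 ± 277, 998 ± 119 and 1179 ± 76.1 TPM. The stage 9 and stage 13 libraries did not overlap in any lineage. Without the neural replicate that stood apart, the neural stage 13 mean was 1114 TPM. Endoderm reached its peak earlier, at 1521 ± 313 TPM at stage 11. At stage 9 cdh3.L, cdh3.S and pcdh1.S led in every lineage, with 26.7%, 25.1% and 22.5% of the epidermal sum. At stage 13 cdh1.S led in the epidermal (48.8% of the sum), neural (33.3%) and ventral mesoderm (29.8%) lineages, while in endoderm pcdh8.2.L led with 24.7% and cdh1.S held 6.68%. The delta protocadherins summed to 184 TPM at stage 9 and 186 TPM at stage 13 in epidermal explants, and in endoderm went from 189 TPM at stage 9 to 1144 ± 286 TPM at stage 11 and 617 TPM at stage 13.

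**Figure D1:**
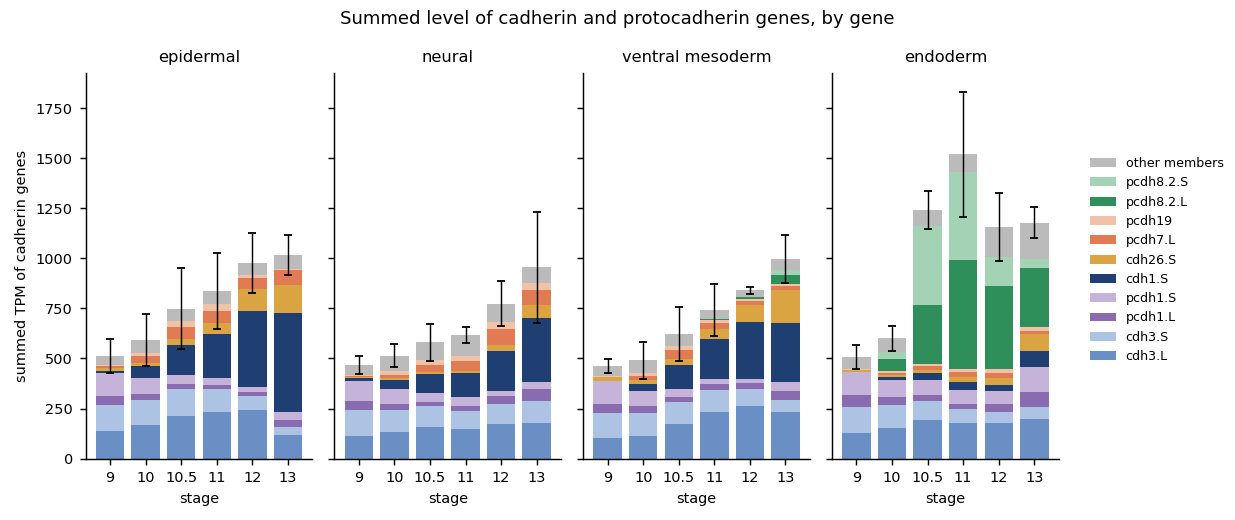
Mean summed TPM of the cadherin and protocadherin genes by stage in each lineage, stacked by member, with black bars for the SD of the sum over libraries. The cdh3 and pcdh1 copies fill most of every stage 9 bar; cdh1.S holds 48.8% of the epidermal and 6.68% of the endoderm sum at stage 13, where pcdh8.2.L holds 24.7%.

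For the maternal C-cadherin gene cdh3, the S copy began near the same level in every lineage, and the homeologs then moved further apart. Stage 9 levels of cdh3.S were 161, 115 and 110 TPM in epidermal explants, and its group means lay between 126 and 130 TPM in the 4 lineages. At stage 13 cdh3.S was 35.0, 38.9 and 41.7 TPM in epidermal, 85.8, 104 and 141 in neural, 55.4, 72.8 and 55.1 in ventral mesoderm and 60.7, 58.4 and 52.7 TPM in endoderm explants. The epidermal libraries were the lowest, with no overlap with any other lineage. On the TMM scale cdh3.S fell in epidermal explants (−0.93 ± 0.20, adjusted p = 0.00421) and was not called in neural (0.39, adjusted p = 0.2), ventral mesoderm (−0.12, 0.557) or endoderm explants (−0.41, 0.0658, or 0.0384 with the replicate number as a block). Scaled by library totals, it fell in ventral mesoderm and endoderm as well (−0.74 and −0.86, adjusted p = 0.00446 and 0.00118).

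For cdh3.L the group means were 137 ± 25.9, 114 ± 19.9, 101 ± 12 and 128 ± 14.0 TPM at stage 9, in the order used above. At stage 13 it was 71.2, 147 and 132 TPM in epidermal, 155, 172 and 214 in neural, 166, 241 and 285 in ventral mesoderm and 179, 191 and 227 TPM in endoderm explants. All libraries of the 3 induced lineages were above all epidermal libraries. It rose in neural (1.31 ± 0.21, adjusted p = 0.00293), ventral mesoderm (2.11 ± 0.21, 7.66e-05) and endoderm explants (1.40 ± 0.12, 2.07e-05). The epidermal lineage went from 137 ± 25.9 TPM at stage 9 to 242 ± 30.3 at stage 12 and 117 ± 40.1 TPM at stage 13, and its log2 change of 0.52 from stage 9 to 13 was not called (adjusted p = 0.104). With both homeologs added together, the epidermal cdh3 change was 0.05 on the log2 scale.

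E-cadherin, cdh1.S, rose in all 4 lineages and became the highest member in 3 of them. Its stage 9 levels were 32.5, 1.30 and 4.23 TPM in epidermal, 18.9, 11.3 and 10.1 in neural, 0.75, 3.94 and 0.10 in ventral mesoderm and 2.06, 0.53 and 1.85 TPM in endoderm explants. Epidermal replicate 1 was the highest of these libraries and stayed the highest epidermal library at every stage, including 618 TPM against 400 and 469 TPM at stage 13. By stage 13 the neural libraries held 208, 393 and 353 TPM, the ventral mesoderm libraries 451, 237 and 204 TPM, and the endoderm libraries 60.0, 102 and 74.7 TPM. Endoderm lay below every library of the other lineages at that stage. The endoderm levels were 29.6, 36.6 and 30.8 TPM at stage 10.5 and 25.6, 37.4 and 26.3 TPM at stage 12, so that they stayed within 25.6 to 42.0 TPM over 3 stages.

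From stage 9 to 13 cdh1.S rose in all 4 lineages, by a log2 fold change of 6.09 ± 1.17 in epidermal (adjusted p = 0.0038), 5.31 ± 0.36 in neural (0.00023), 8.85 ± 1.04 in ventral mesoderm (0.000336) and 6.61 ± 0.46 in endoderm explants (1.18e-05). The difference between the endoderm and epidermal changes was not called in the interaction test (0.53 ± 1.2, adjusted p = 0.855), although endoderm was lower than epidermal at stages 10.5 to 13. That difference was −2.47 at stage 10.5, −2.75 at stage 11, −3.78 at stage 12 and −2.89 ± 0.28 at stage 13 (adjusted p = 0.000124). The standard errors of the stage 9 to 13 changes of epidermal and ventral mesoderm explants are wide, since their stage 9 libraries ranged from 1.30 to 32.5 and from 0.10 to 3.94 TPM.

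N-cadherin was highest in endoderm, not in the Noggin-treated explants. At stage 13 cdh2.L was 19.0, 19.7 and 23.5 TPM in endoderm, 4.02, 1.43 and 7.21 in neural, 0.35, 2.97 and 1.14 in ventral mesoderm and 0.57, 1.05 and 1.17 TPM in epidermal explants. Its endoderm levels were 0, 0.03 and 0 TPM at stage 9, 2.74, 3.32 and 2.03 at stage 11 and 10.1, 14.8 and 14.0 TPM at stage 12. The copy cdh2.S stood at 22.8, 18.4 and 19.5 TPM in stage 13 endoderm, 5.84, 12.1 and 6.40 in epidermal, 3.42, 1.41 and 1.60 in neural and 2.78, 2.55 and 4.81 TPM in ventral mesoderm explants. For both copies the endoderm libraries lay above all the others. Endoderm replicate 1, with the most notochord and muscle markers, was the lowest of the 3 in cdh2.L and the highest in cdh2.S, and the part of those markers was not tested.

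Each copy of cdh2 rose in all 4 lineages from stage 9 to 13, and most in endoderm. For cdh2.L the log2 fold change was 3.76 ± 0.88 in epidermal, 6.47 ± 0.75 in neural and 5.34 ± 1.07 in ventral mesoderm explants, and the endoderm ratio was 952 (95% counting interval 325 to 4619) with at most 3 counts in all at stage 9. For cdh2.S it was 6.49 ± 0.50, 5.16 ± 1.01, 6.42 ± 0.88 and 9.47 ± 0.30 (endoderm adjusted p = 3.74e-07). The endoderm change exceeded the epidermal one by 5.96 ± 1.01 for cdh2.L (adjusted p = 0.00182) and 3.0 ± 0.64 for cdh2.S (0.00756). At stage 13 endoderm exceeded epidermal explants by 4.30 ± 0.30 for cdh2.L (1.79e-05) and by 1.11 ± 0.29 for cdh2.S (0.0177), and the latter was no longer called without endoderm replicate 1 (0.98) or epidermal replicate 3 (0.94). At stage 12 cdh2.S was lower in neural than in epidermal explants (−2.30 ± 0.57, adjusted p = 0.027).

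**Figure D2:**
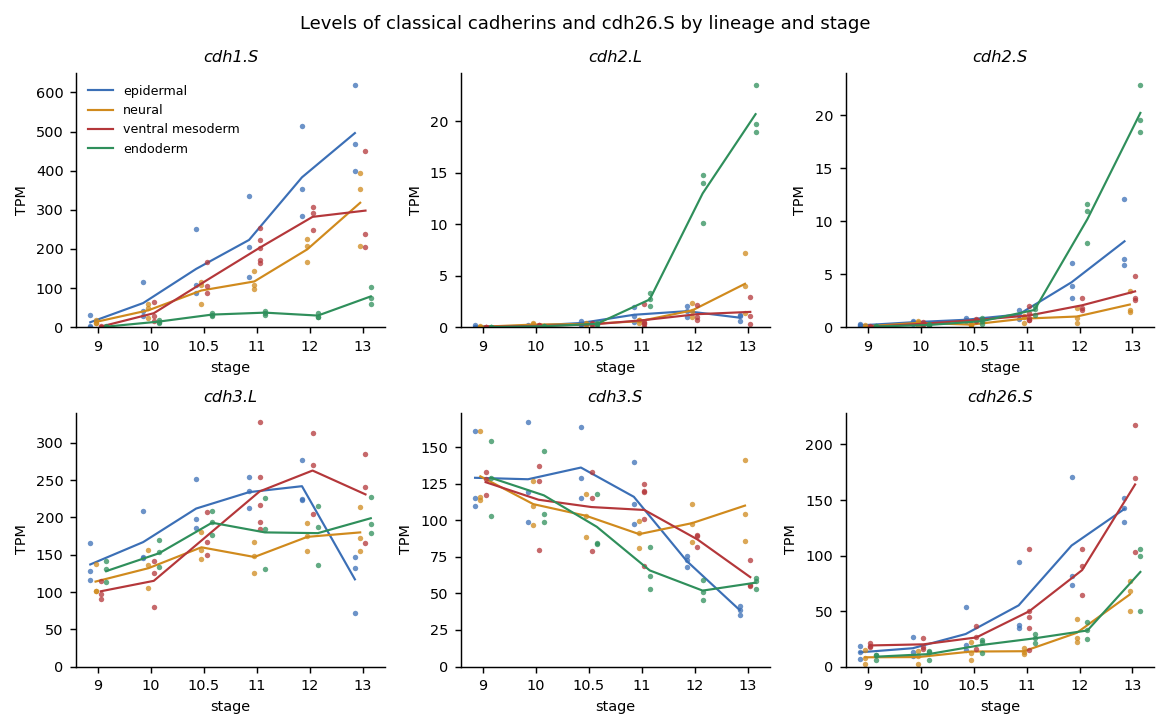
TPM of 6 cadherin genes by stage, with points for libraries and lines for group means in the 4 lineages. At stage 13 the endoderm libraries lie below all others for cdh1.S (60.0 to 102 TPM) and above all others for cdh2.L (19.0 to 23.5 TPM), and the epidermal libraries lie lowest for cdh3.S (35.0 to 41.7 TPM).

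The divergent cadherin cdh26, known from mammalian epithelia, was measured mainly through its S copy. At stage 9 cdh26.S was 18.2, 13.0 and 7.20 TPM in epidermal, 2.36, 14.8 and 7.84 in neural, 18.4, 17.5 and 21.2 in ventral mesoderm and 5.89, 10.2 and 10.5 TPM in endoderm explants. At stage 13 it was 152, 143 and 130 TPM in epidermal, 77.1, 67.7 and 50 in neural, 103, 218 and 170 in ventral mesoderm and 49.7, 106 and 99.6 TPM in endoderm explants. The epidermal and ventral mesoderm libraries overlapped, while the epidermal ones lay above all neural and all endoderm libraries. It rose by a log2 fold change of 4.22 ± 0.33, 3.63 ± 0.64, 3.98 ± 0.30 and 3.88 ± 0.36 in the 4 lineages (adjusted p = 3.59e-05, 0.0041, 1.99e-05 and 5.16e-05). Compared with epidermal explants, it was lower in neural at stage 12 (−1.96 ± 0.42, adjusted p = 0.0207) and in endoderm at stage 13 (−0.98 ± 0.27, 0.0216), the latter no longer called without endoderm replicate 3 (−1.02) or epidermal replicate 1 (−0.88). The row listed as cdh26, with no homeolog letter, gave levels that disagreed between the count and TPM tables (correlation 0.11 over the 24 groups), so no direction is given for it.

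Among the type II cadherins, whose members are known for the sorting of neurons and mesenchyme, only cdh6.S (K-cadherin) reached 10 TPM, and only in endoderm. Its endoderm levels were 0, 1.04 and 3.05 TPM at stage 9, 2.40, 2.09 and 8.29 at stage 11, 4.80, 5.67 and 12.1 at stage 12 and 10.2, 16.5 and 35.0 TPM at stage 13. In the other lineages no stage 13 library exceeded 0.26 TPM. At stage 13 the endoderm count over the epidermal count was 848 (95% counting interval 152 to 33526), and endoderm was at least 103-fold higher than ventral mesoderm, where all 3 libraries had 0 counts. Replicate 3 was the highest endoderm library at all 6 stages. The rise from stage 9 in endoderm was 3.29 ± 1.12 (adjusted p = 0.0354), and that call was lost with DESeq2 (3.46), with no filter on low counts (3.25) and with library totals (2.85), as well as without replicate 2 (3.42) or 3 (2.76) of stage 13 or replicate 2 of stage 9 (3.16).

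Members of this class below 10 TPM gave the clearest zeros. The endoderm libraries held 0 counts of cdh11.L (cadherin-11, known from mesenchyme and cranial neural crest) at stages 9 and 10, 70, 121 and 47 at stage 11, 206, 355 and 349 at stage 12 and 307, 228 and 182 at stage 13. Epidermal explants had 0, 0 and 1 counts of it at stage 13 and ventral mesoderm explants 1, 54 and 42. In endoderm it rose at least 134-fold from stage 9 and in ventral mesoderm at least 17.7-fold, both bounds taken at 3 counts per library at stage 9. The opposite course was that of cdh7.S, which was called lower in all 4 lineages. Its counts were 126, 118 and 154 in epidermal explants at stage 9 and 3, 4 and 16 at stage 13, with a log2 fold change of −3.41 ± 0.67 (adjusted p = 0.003), and it fell by 3.39 ± 0.71 in neural and 2.53 ± 0.79 in endoderm explants on the log2 scale.

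Of the delta protocadherins, the subfamily with conserved cytoplasmic motifs, pcdh1 (axial protocadherin, known from Xenopus notochord) was already high at stage 9. Levels of pcdh1.S at stages 9, 12 and 13 in epidermal explants were 117, 112 and 118, then 32.6, 15.1 and 24.6, then 44.2, 31.5 and 42.3 TPM. In neural explants they were 106, 112 and 89.1 at stage 9 and 20.4, 56.2 and 27.2 TPM at stage 13, and in ventral mesoderm 128, 96.0 and 112 and then 25.1, 55.9 and 45.8 TPM. Endoderm kept 55.6, 71.6 and 76.4 TPM at stage 12 and 88.0, 151 and 139 TPM at stage 13, after 99.5, 141 and 111 TPM at stage 9. The stage 13 endoderm libraries lay above every library of the other lineages at that stage. Replicate 1, the highest of them in summed notochord markers (mostly chrd), was the lowest in pcdh1.S, and the part of those markers in the endoderm level was not tested.

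The stage 9 to 13 change of pcdh1.S was −1.30 ± 0.20 in epidermal (adjusted p = 0.000805), −1.39 ± 0.32 in neural (0.0115) and −0.91 ± 0.26 in ventral mesoderm explants (0.0168), all called, and 0.50 in endoderm (0.0899, or 0.0142 with the replicate block). The endoderm and epidermal changes differed by 1.82 ± 0.32 (adjusted p = 0.00241). Its homeolog pcdh1.L rose in endoderm (1.05 ± 0.15, 0.000395) and was not called in the other lineages. In TPM its endoderm mean went from 58.9 at stage 9 to 76.8 at stage 13. The stage 13 libraries held 68.8, 80.6 and 80.8 TPM in endoderm, against 35.7, 33.6 and 38.2 TPM in epidermal explants. With the homeologs added, the neural and ventral mesoderm changes of pcdh1 were −0.27 and −0.01 and were not called.

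The gene for NF-protocadherin, pcdh7, was one of the first members to rise, and at stage 13 its L copy was higher in epidermal than in endoderm and ventral mesoderm explants. Its stage 9 to 13 change in either of these lineages was not called as different from the epidermal one by edgeR. For pcdh7.L the stage 9 levels were 14.4, 5.93 and 4.92 TPM in epidermal and 1.2, 1 and 2.22 TPM in endoderm explants. The libraries of these lineages thus did not overlap at stage 9 already, which is the time zero of the study. There edgeR called no member between them, while DESeq2 did call some. How many of all genes did not overlap at that stage was not counted. With the S copy added, ventral mesoderm was low at stage 9 as well, at 2.14 ± 1.01 TPM against 9.86 ± 5.37 TPM in epidermal explants. At stage 10.5 epidermal libraries held 90.1, 49.7 and 46.7 TPM and endoderm libraries 17.8, 14.4 and 15.8 TPM. At stage 13 the levels were 88.8, 61.7 and 66.4 TPM in epidermal, 17.1, 112 and 93.2 in neural, 21.6, 30.5 and 12.1 in ventral mesoderm and 14.1, 10.2 and 13.8 TPM in endoderm explants. The epidermal libraries did not overlap with those of ventral mesoderm or endoderm, and the neural replicate that stood apart was the only neural library below the epidermal range.

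On the test, pcdh7.L rose in all lineages from stage 9 to 13 (3.78 ± 0.37, 5.13 ± 0.68, 3.91 ± 0.43 and 4.09 ± 0.46), and without the outlying neural replicate the neural value was 5.58. It was lower in endoderm than in epidermal explants from stage 10 (−2.58 ± 0.26) to stage 13 (−1.79 ± 0.30), and lower in ventral mesoderm at stage 13 (−1.81 ± 0.32, adjusted p = 0.0348), a call that was lost without any 1 of the 3 epidermal libraries (−1.88 to −1.68) or without ventral mesoderm replicate 2 (−1.98) or 3 (−1.54). The S copy followed at a lower level, with 24.3, 15.5 and 13.8 TPM in epidermal and 1.64, 1.40 and 2.35 TPM in endoderm explants at stage 13. These libraries did not overlap, and the difference was −3.54 ± 0.35.

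The largest fitted change from stage 9 to 13 among the tested members was that of pcdh8.2, a delta protocadherin gene that the annotation lists beside pcdh8. In endoderm pcdh8.2.L went from 0.21, 0 and 0.22 TPM at stage 9 to 47.0, 60.0 and 85.0 at stage 10 and 503, 729 and 390 TPM at stage 11, and was still at 331, 245 and 296 TPM at stage 13. The S copy went from 0.06, 0 and 0.03 TPM at stage 9 to 491, 351 and 355 at stage 10.5 and 422, 575 and 321 at stage 11, and was down to 59.2, 45.6 and 41.8 TPM at stage 13. Both homeologs were near 0 at stage 9. From stage 10 on the S copy was lower than the L copy in every endoderm library, except at stage 10.5, where it was higher in all of them. Ventral mesoderm showed a later appearance, with pcdh8.2.L at 1.46, 10.9 and 17.6 TPM at stage 12 and 6.65, 80.5 and 55.2 TPM at stage 13. Its replicate 1, which had the fewest ventral mesoderm markers, was the lowest at both stages. Epidermal (1.51, 1.48 and 3.30 TPM) and neural libraries (0.67, 1.66 and 2.76 TPM) remained far below at stage 13.

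The endoderm rise of pcdh8.2.L was called between stages 9 and 10 (9.56 ± 0.36) and between stages 10 and 10.5 (2.48), and over stages 9 to 13 amounted to 12.46 ± 0.33 (adjusted p = 2.26e-07). That of pcdh8.2.S was a ratio of 1225 (95% counting interval 419 to 5943) from stage 9 to 10, 3.85 from stage 10 to 10.5, and then a fall of −1.48 ± 0.25 from stage 11 to 12 and −1.43 ± 0.18 from stage 12 to 13. Against epidermal explants, endoderm was higher by 10.64 ± 0.33 for the L copy and 9.70 ± 0.54 for the S copy at stage 10, and by 7.03 ± 0.30 and 6.44 ± 0.28 at stage 13. In ventral mesoderm the ratio of stage 13 to stage 9 was 4037 for pcdh8.2.L (95% counting interval 1381 to 19579) and 1955 for pcdh8.2.S (668 to 9485). Endoderm exceeded ventral mesoderm in pcdh8.2.L at stage 12 (5.21 ± 0.92) and was not called at stage 13.

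**Figure D3:**
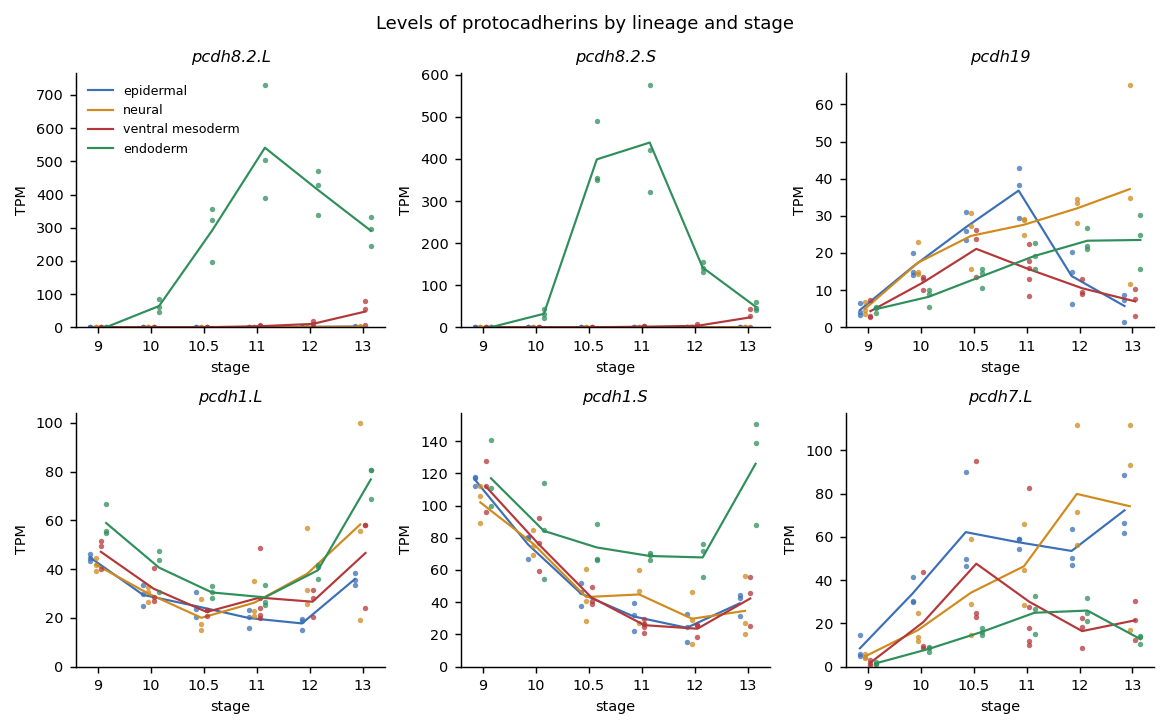
TPM of 6 protocadherin genes by stage, with points for libraries and lines for group means in the 4 lineages. The endoderm libraries reach 390 to 729 TPM of pcdh8.2.L and 321 to 575 TPM of pcdh8.2.S at stage 11, and at stage 13 endoderm holds 88.0 to 151 TPM of pcdh1.S and the epidermal lineage 31.5 to 44.2 TPM.

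The other members with pcdh8 in their names had different time courses. In endoderm pcdh8l.L stayed at 0.42, 0.34 and 0.68 TPM at stage 12 and reached 14.6, 18.3 and 12.8 TPM at stage 13, a step of 4.68 on the log2 scale. Neural explants had their highest means of it earlier, with 6.87, 16.9 and 4.96 TPM at stage 10.5 and 3.87, 19.4 and 10.4 TPM at stage 11, and held 0.02, 4.38 and 0.81 TPM at stage 13. In ventral mesoderm it was 0.40, 27.3 and 11.6 TPM at stage 13, again lowest in replicate 1. The epidermal libraries held at most 0.17 TPM at stage 13. It rose from stage 9 to 13 in ventral mesoderm (4.77 ± 1.17, adjusted p = 0.0105) and endoderm (3.95 ± 0.53, 0.000354).

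The S copy pcdh8l.S, which the Xenopus literature knows as the neural crest protocadherin pcns, and pcdh8 itself stayed below 10 TPM. RefSeq gives the L copy of pcdh8 the synonym papc, a gene known for paraxial mesoderm and tissue separation. That synonym belongs to assembly 10.1, while the counts were made on genome 9.2. Whether the counted pcdh8 or pcdh8.2 rows are papc was not checked, so no level here is read as that of papc. Endoderm libraries held no count of pcdh8l.S at stage 9, 194, 257 and 186 at stage 11 and 167, 58 and 113 at stage 13, at least 64.2-fold above stage 9. For pcdh8.L the endoderm counts were 38, 8 and 11 at stage 9, 189, 190 and 167 at stage 10.5 and 143, 31 and 37 at stage 13. The stage 10.5 libraries lay above all stage 9 libraries, and those of stage 13 overlapped with them. The highest count at stage 13 was that of replicate 1, which also had the highest summed notochord and muscle markers, and the part of those markers was not tested.

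The delta protocadherin pcdh19, known from zebrafish neurulation, had its highest mean at stage 11 in epidermal explants and stood higher in neural and endoderm explants at stage 13. Epidermal levels were 42.8, 38.3 and 29.4 TPM at stage 11, 6.13, 20.2 and 14.9 at stage 12 and 1.31, 7.25 and 8.58 TPM at stage 13. Neural levels were 28.0, 33.4 and 34.6 TPM at stage 12 and 11.6, 34.7 and 65.2 TPM at stage 13, and endoderm levels 30.1, 15.7 and 24.8 TPM at stage 13. All neural and endoderm libraries were above all epidermal ones at stage 13, although the outlying neural replicate was the lowest of the neural libraries. From stage 9 to 13 it rose in neural (3.74 ± 0.44, adjusted p = 0.0008) and endoderm explants (3.67 ± 0.32, 2.89e-05) and was not called in epidermal (0.129) or ventral mesoderm explants (0.0588). At stage 13 it was higher than in epidermal explants by 3.07 ± 0.61 in neural (adjusted p = 0.026, and 3.34 without the outlying replicate) and 2.93 ± 0.55 in endoderm explants. The neural call was lost without epidermal replicate 1 (2.63) or 3 (3.12) or neural replicate 3 (2.81).

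Of the pcdh18 copies the S copy reached 10 TPM in endoderm, while the L copy stayed below it and was higher in all 3 treated lineages than in epidermal explants. Stage 13 levels of pcdh18.S were 13.0, 8.97 and 11.0 TPM in endoderm, 2.12, 1.26 and 1.53 in epidermal, 1.69, 3.53 and 1.96 in neural and 0.76, 0.87 and 1.16 TPM in ventral mesoderm explants. It rose from stage 9 in endoderm (4.58 ± 0.34, adjusted p = 1.3e-05) and neural explants (1.58 ± 0.42, 0.0197), the latter not called without neural stage 13 replicate 2 (1.38) or stage 9 replicate 1 (1.47) or 3 (1.5). Counts of pcdh18.L at stage 13 were 20, 12 and 17 in epidermal, 82, 139 and 251 in neural, 77, 240 and 247 in ventral mesoderm and 301, 468 and 148 in endoderm libraries. None of the treated libraries overlapped with the epidermal ones, and pcdh18.L was higher than in epidermal explants by 3.23 ± 0.51 in neural (adjusted p = 0.011), 3.41 ± 0.53 in ventral mesoderm (0.0285) and 4.33 in endoderm.

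The remaining members that reached 10 TPM were pcdh10.S and the clustered protocadherin pcdha13.L, whose family is known for neuronal identity. For pcdh10.S the level rests on a single endoderm library at stage 12 (3.64, 1.34 and 97.2 TPM), whose counts were 176, 62 and 111, and at stage 13 it was 3.83, 2.14 and 3.73 TPM in endoderm and 0.94, 0.72 and 1.06 TPM in epidermal explants. It rose in endoderm (3.24 ± 0.49, adjusted p = 0.000584), and added to pcdh10.L it no longer exceeded the epidermal level at stage 13 (−0.09). Its homeolog pcdh10.L was higher in epidermal (746, 193 and 224 counts) than in neural explants (18, 43 and 35 counts) at stage 13 (−3.56, adjusted p = 0.0147). For pcdha13.L the highest levels were 10.3, 8.90 and 13.1 TPM in stage 11 epidermal explants, and it rose in all lineages from stage 9 to 13 (1.68 ± 0.47, 2.90 ± 0.35, 3.37 ± 0.53 and 3.68 ± 0.49), although the epidermal call was lost without stage 13 replicate 2 (1.47) or 3 (1.52).

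Counted over the family, the share of members called from stage 9 to 13 was near or below that of all genes. This fit left the replicate number unused, although it paired these libraries in all lineages but ventral mesoderm. Counts of members with the block are not given, and a member not called here may still have changed. In endoderm 40 of the 61 tested members (65.6%) were called, 36 higher and 4 lower, where 61.4% of all tested genes were called (32.5% higher and 28.9% lower). In epidermal explants 25 were called, 16 higher and 9 lower, beside a background of 54.7% (27.8% and 26.9%). In neural explants 22 were called, 20 higher and 2 lower (background 40.1%, with 21.7% and 18.3%), and in ventral mesoderm 25, 19 higher and 6 lower (background 54.6%, with 28.4% and 26.3%). The median log2 fold change of the tested members was 2.95 in endoderm, 1.31 in neural, 0.36 in ventral mesoderm and −0.53 in epidermal explants, beside medians of 0.15, 0.21, 0.07 and 0.00 over all genes. With members that had 0 counts in a group set to their bound at 3 counts, and members at or under that floor in both groups set to 0, these medians were 2.86, 1.13, 0.04 and 0.00. The neural count was 31 without the outlying replicate of stage 13, 14 without replicate 1 of stage 9 and 13 with homeologs added together. Scaled by library totals the split was 14 higher and 12 lower in epidermal, 16 and 2 in neural, 19 and 12 in ventral mesoderm and 33 and 7 in endoderm explants. For such other settings and left-out libraries, here and below, the share of all genes called is not given, except for the replicate block over successive stages.

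By class, 15 of 17 tested delta protocadherins were called higher in endoderm and none lower, against 6 higher and 2 lower in epidermal, 8 and 1 in neural and 7 and 1 in ventral mesoderm explants. The class medians were 3.24, 0.77, 1.80 and 1.22 on the log2 scale, beside 0.15, 0.00, 0.21 and 0.07 over all genes. In the same order 32.5%, 27.8%, 21.7% and 28.4% of all genes were called higher and 28.9%, 26.9%, 18.3% and 26.3% lower. These backgrounds hold for the classes below as well. Of the 9 type I cadherins 5 were higher in endoderm and none lower, and in epidermal explants 3 were higher and 3 lower, with medians of 1.40 and −0.93 (0.00 in epidermal explants with members at their bounds). Among the 3 lower ones was cdh15.L, whose levels disagreed between counts and TPM (correlation −0.34 over the groups). Its call rests on counts alone, here and in the totals above, and is not read as a direction. Of 14 type II cadherins 5 were higher and 2 lower in endoderm (median 0.77) and 2 higher and 1 lower in epidermal explants (−2.06, and 0.00 at the bounds). Of 6 clustered protocadherins 5 were higher in endoderm and 3 in each of the other lineages. Called higher in all 4 lineages were cdh1.S, cdh2.L, cdh2.S, cdh26.S, pcdh12.S, pcdh7.L, pcdh7.S, pcdh8.2.L, pcdha13.L and pcdhga2, 10 members in all. Only cdh7.S was lower in all 4, pcdh1.S and pcdh20.S were lower in 3, and 13 members were not called in any lineage in this fit without the block. How many of all genes were called alike across the lineages was not counted, so these numbers are not read as a trait of the family. The atypical member cdh13.S (T-cadherin, which is held by a lipid anchor in place of a transmembrane stretch) was called higher in endoderm (3.50 ± 0.64) and lower in epidermal explants (−3.48 ± 1.22).

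**Figure D4:**
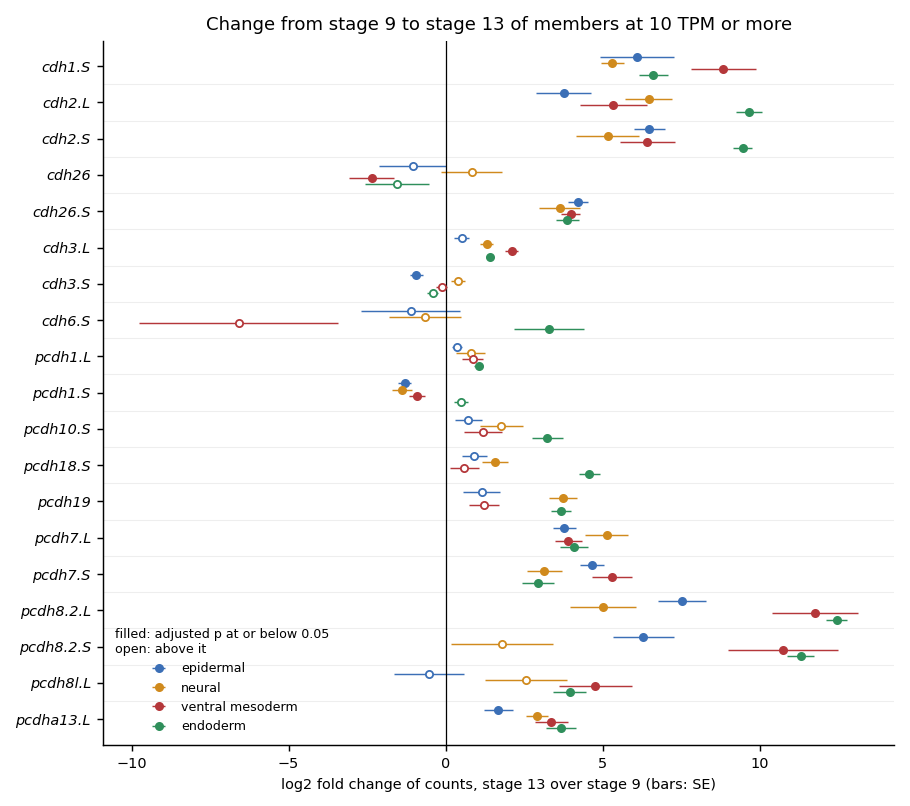
Log2 fold change from stage 9 to 13 with its SE for the 19 members that reached 10 TPM, in each lineage, filled where the adjusted p is under 0.05. Points to the right of 0 rose: cdh1.S lies between 5.31 and 8.85 in all lineages, pcdh1.S at −1.39 to −0.91 in 3 lineages and at 0.50 in endoderm.

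Direct tests of whether the stage 9 to 13 change differed from the epidermal one called 19 members in endoderm (18 larger, 1 smaller, background 16.3% of all genes, 8.43% larger and 7.85% smaller), 1 in neural (pcdh18.L, 3.44 ± 0.68, adjusted p = 0.0292, background 1.57%) and 0 in ventral mesoderm (background 0.328%), where 8 had an unadjusted p under 0.05 and DESeq2 called 3. Without the outlying neural replicate 7 members were called in neural explants, and without replicate 1 of ventral mesoderm at stage 13 3 members were called there. The endoderm count was 12 without replicate 2 of endoderm at stage 13 and also without replicate 2 of the epidermal stage 9 libraries.

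Between successive stages the number of calls depended on whether the replicate number was used as a block, and the numbers paired the libraries in all steps but that of ventral mesoderm from stage 10.5 to 11. With the block, the calls summed over the 5 steps were 80 in epidermal, 63 in neural, 55 in ventral mesoderm and 102 in endoderm explants, beside block backgrounds of 30.1%, 16.4%, 22.1% and 33.3%. Without it they were 3, 4, 4 and 46. Each sum is over 61 tested members in each of the 5 steps. Endoderm had the most calls in both fits, and it also had the highest share of all genes called in both. DESeq2 without the block gave 29, 18 and 25 calls in the epidermal, neural and ventral mesoderm lineages.

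In the fit without the block the 5 steps gave 8, 11, 10, 6 and 11 calls in endoderm, beside backgrounds of 6.56%, 12.0%, 7.86%, 7.96% and 7.52% of all genes. That fit leaves the pairing of the libraries unused, and the sums with the block above are larger in every lineage. A step without calls in it therefore does not show that the members stopped changing. Endoderm cdh1.S rose from stage 9 to 10 (3.55), from 10 to 10.5 (1.27) and again from 12 to 13 (1.44), and cdh2.S in each of the 3 steps from stage 10.5 to 13 (2.02, 3.03 and 1.09). In epidermal explants 3 members were called from stage 9 to 10 (pcdh7.L 2.38, pcdh19 2.01 and pcdh7.S 1.81, background 2.05%) and none in the 4 later steps, where 0% of all genes were called and edgeR gave 10, 5, 12 and 15 members at an unadjusted p under 0.05 (DESeq2 called 5, 1, 3 and 9). In neural explants 4 were called, all from stage 9 to 10 (pcdh8l.S 4.55, pcdha13.L 2.04, cdh1.S 2.01 and pcdh7.S 1.77, background 3.22%), with 15, 5, 7 and 5 at an unadjusted p under 0.05 in the later steps (background 1.69%, then 0% in 3 steps, DESeq2 6, 0, 1 and 0 calls). In ventral mesoderm pcdh7.S (3.47) and pcdha13.L (3.48) were called from stage 9 to 10 (background 0.729%) and pcdh10.L (2.11) and pcdh18.L (2.27) from stage 12 to 13 (background 3.79%), with 6, 7 and 7 at an unadjusted p under 0.05 in the steps between (backgrounds of 0%, 0.00729% and 1.24%, DESeq2 5, 4 and 2 calls).

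Against epidermal explants of the same stage, endoderm had calls from stage 10 on and the most of them. Of the 61 members, 0, 4, 10, 14, 29 and 33 were called at the 6 stages in order, beside backgrounds of 0.0146%, 4.67%, 8.01%, 10.7%, 22.6% and 33.7% of all genes, and 12 had an unadjusted p under 0.05 with edgeR at stage 9, where DESeq2 called 7. The 4 at stage 10 were pcdh8.2.L and pcdh8.2.S, higher in endoderm, and pcdh7.L (−2.58 ± 0.26) and pcdh19 (−1.01 ± 0.24), lower. Of the 33 at stage 13, 27 were higher in endoderm and 6 lower (background 17.9% and 15.8%), and the 6 were cdh1.S, cdh26.S, pcdh7.L, pcdh7.S, pcdha13.S (−2.79) and pcdh20.L (−1.49). Of the 17 tested delta protocadherins 12 were higher and 2 lower. The sum over stages of 90 calls was 59 without replicate 3 of every group.

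Neural and epidermal explants differed later and in fewer members, with 0, 0, 0, 3, 10 and 5 calls at the 6 stages (backgrounds of 0.00365%, 0.0365%, 0.222%, 2.65%, 13.1% and 4.74%). At the first 3 stages 3, 10 and 7 members had an unadjusted p under 0.05 with edgeR, and DESeq2 called 0, 0 and 4. At stage 12 cdh1.S (−1.06 ± 0.26, adjusted p = 0.0246), cdh2.S and cdh26.S were lower in neural explants, and pcdh19 (1.29 ± 0.35, 0.036), pcdh18.L (1.29) and pcdh11x (2.52) higher. At stage 13 cdh3.S was higher (1.33 ± 0.26, adjusted p = 0.0229), with 85.8 to 141 TPM against 35.0 to 41.7 TPM, a call lost without any 1 of the epidermal libraries or neural replicate 3 (1.22 to 1.36). Also called there were pcdh18.L, pcdh19 and pcdh11x (3.69 ± 0.67), all higher, and pcdh10.L, lower. Over the 6 stages the 18 calls became 28 without replicate 1 and 6 without replicate 3, and DESeq2 gave 40, with the share of all genes under these settings not given.

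Ventral mesoderm had the fewest calls against epidermal explants, with 0, 0, 0, 1, 1 and 2 calls at the 6 stages (backgrounds of 0%, 0%, 0.00729%, 0.109%, 0.828% and 1.79%). At the first 3 stages 8, 6 and 7 members had an unadjusted p under 0.05 with edgeR (share of all genes at that threshold not given), and DESeq2 called 3, 0 and 2. The 4 edgeR calls were pcdh9.S, lower at stage 11 (−2.19, adjusted p = 0.0459) and stage 12 (−2.81, 0.0238, with 12, 9 and 18 counts against 84, 88 and 85), and pcdh18.L and pcdh7.L at stage 13. Without replicate 1 of every group the 4 calls became 24, and DESeq2 gave 34, with the share of all genes under these settings not given. Endoderm differed from ventral mesoderm in 0, 2, 4, 14, 27 and 28 members at the 6 stages (backgrounds of 0.00729%, 0.693%, 5.18%, 11.2%, 22.1% and 29.5%), and at stage 9 edgeR gave 3 at an unadjusted p under 0.05 and DESeq2 called 1. At stage 13 cdh1.S (−2.22 ± 0.35), cdh26.S (−1.30) and cdh3.L (−0.62) were lower in endoderm, and cdh2.L (3.69), cdh2.S (2.35), pcdh1.S (1.52), pcdh18.S (3.54) and pcdh19 (2.55) higher. The sum of 75 calls was 41 without replicate 3 of every group.

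The homeologs of the highest members shifted in their shares as the explants developed. The S copy gave 48.4 ± 1.02% of the summed cdh3 TPM in epidermal explants at stage 9 and 26.0 ± 6.25% at stage 13 (SD, n = 3), going from 49.8% to 22.5 ± 3.34% in endoderm, from 55.6% to 21.5 ± 4.66% in ventral mesoderm and from 53.2% to 37.7 ± 2.07% in neural explants. For pcdh1 the S share went from 72.1% to 52.1 ± 3.49% in epidermal and from 66.4% to 61.5 ± 4.78% in endoderm explants. For pcdh8.2 in endoderm it was 33.3 ± 7.10% at stage 10, 58.2 ± 5.83% at stage 10.5, 44.9 ± 0.766% at stage 11, 25.8 ± 2.71% at stage 12 and 14.4 ± 1.77% at stage 13. The cdh2 copies shared endoderm evenly at stage 13 (S share 49.4 ± 4.71%), while cdh1 came almost entirely from the S copy, whose group means were at least 96.9% in every lineage from stage 10.5 on. Of the 20 homeolog pairs with both copies tested, both were called in the same direction from stage 9 to 13 in 4 epidermal, 3 neural, 4 ventral mesoderm and 10 endoderm comparisons, and 1 copy alone was called in 10, 12, 12 and 10. The same shares over all homeolog pairs were not counted.

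**Figure D5:**
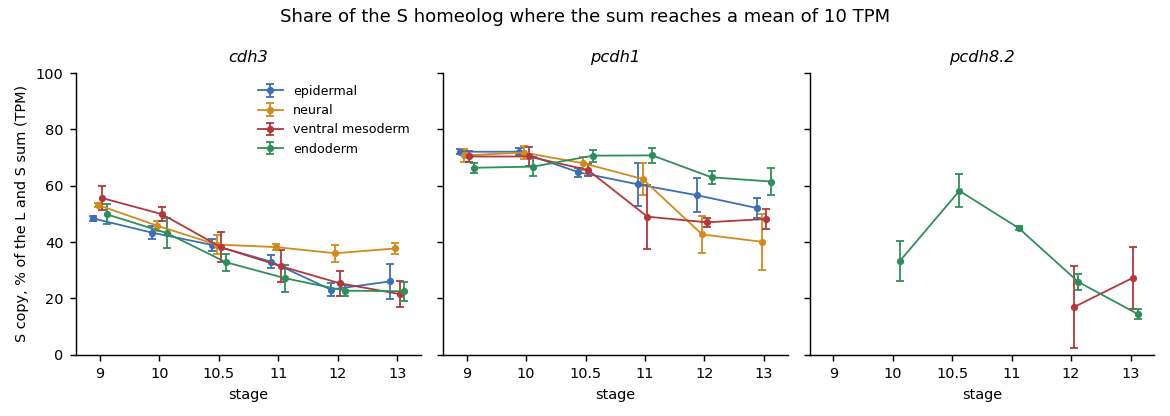
Share of the summed homeolog TPM held by the S copy (percent, mean and SD over libraries) for cdh3, pcdh1 and pcdh8.2 by stage, drawn where the summed mean is at least 10 TPM. The pcdh8.2 share in endoderm goes from 58.2% at stage 10.5 to 14.4% at stage 13, and the cdh3 share is at or below 37.7% in all lineages at stage 13.

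Several of these genes are neighbours in the RefSeq annotation of assembly 10.1, which is a later build than the one the counts were made on. With no protein-coding gene between them lie cdh1 and cdh3 on chromosomes 4L and 4S, pcdh10 and pcdh18 on 1L and 1S, and pcdh8, pcdh8.2 and pcdh17 on 2L and 2S. Neighbours did not always change alike: cdh1.S rose in epidermal explants while cdh3.S beside it fell. For pcdh8.2.L and pcdh17.L the stage 9 to 13 change was larger in endoderm than in epidermal explants for both, by 4.94 and 4.51 on the log2 scale.

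Lists of intracellular partners and desmosomal genes were read against the same backgrounds, in which 27.8%, 21.7%, 28.4% and 32.5% of all genes rose and 26.9%, 18.3%, 26.3% and 28.9% fell from stage 9 to 13 in epidermal, neural, ventral mesoderm and endoderm explants. Of 19 tested catenins and related genes 9 rose and 2 fell in epidermal explants from stage 9 to 13, 7 and 1 in neural, 9 and 4 in ventral mesoderm and 9 and 6 in endoderm, with medians of 0.65, 0.22, 0.85 and 0.72 on the log2 scale beside 0.00, 0.21, 0.07 and 0.15 over all genes. At stage 13 ctnna2, the neuronal alpha-catenin, was at 10.6 ± 3.53 TPM in endoderm and 0.0333 TPM in epidermal explants (7.62 ± 0.65). The plakophilin pkp3.S, a desmosomal plaque protein of epithelia, was at 63.4 ± 9.42 TPM in epidermal, 3.83 ± 1.18 in endoderm (−4.07 ± 0.23) and 2.94 TPM in neural explants (−4.64 ± 0.40). Among the 8 tested desmosomal cadherins and desmoplakin genes 4 rose and 2 fell in epidermal explants (median 2.06), 2 and 1 in neural (0.33), 4 and 3 in ventral mesoderm (0.14) and 4 and 1 in endoderm (0.94). Against epidermal explants at stage 13, 3 were higher and 2 lower in endoderm (background 17.9% and 15.8%), and 0 and 2 in neural explants (background 4.74% in both directions together). Desmoplakin dsp.L stood at 151 ± 38.2 TPM there, 51.5 TPM in neural (−1.79) and 73.1 TPM in endoderm explants (−1.26). The desmocollin dsc3.S fell in all 4 lineages (−5.36, −3.04, −6.05 and −3.56).

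The seven-pass and giant atypical cadherins, known for planar cell polarity, split within the group of 17: 4 rose and 5 fell in epidermal explants and 7 rose and 5 fell in endoderm, with medians of −0.21 and 0.67. Over all genes 27.8% rose and 26.9% fell in epidermal explants, and 32.5% and 28.9% in endoderm. Among the atypical cadherins celsr1 rose in all 4 lineages (4.65, 4.98, 5.20 and 3.91) and celsr2.L fell in all 4 (−1.02, −0.97, −0.61 and −1.41). Of 9 transcription factor genes known to repress E-cadherin or to act in mesenchyme, 3 rose in epidermal, 3 in neural, 6 in ventral mesoderm and 8 in endoderm explants and none fell, with medians of 0.58, 1.43, 3.42 and 4.53. In the same order 27.8%, 21.7%, 28.4% and 32.5% of all genes rose. At stage 13 snai2.S was at 17.1 ± 8.47 TPM in endoderm (9.38 ± 0.82 above epidermal explants), and zeb2.S at 17.7 ± 17 TPM in endoderm, 27.3 ± 16.4 in ventral mesoderm, 16.1 ± 14.5 in neural and 0.233 TPM in epidermal explants. At the same stage cdh1.S, which rose from stage 9 in all 4 lineages, was at 78.8 ± 21.1 TPM in endoderm. It was at 298 TPM in ventral mesoderm, 318 in neural and 496 TPM in epidermal explants. The endoderm level of cdh2.L was 20.7 ± 2.44 TPM. A relation of these factors to either cadherin gene was not tested.

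Of 11 genes for regulators of adhesion described with C-cadherin and protocadherins in the Xenopus gastrula, 9 were higher in endoderm than in epidermal explants at stage 13, 5 in ventral mesoderm and 3 in the neural lineage, with medians of 2.19, 2.96 and 1.46 beside 0.12, 0.00 and 0.14 over all genes. Of all genes 17.9% were higher in endoderm. In both directions together 1.79% were called in ventral mesoderm and 4.74% in neural explants. The transmembrane protein gene flrt3.L was at 118 ± 75.1 TPM in ventral mesoderm, 86.8 ± 10.4 in endoderm and 1.79 TPM in epidermal explants, with differences of 6.13 and 5.54. The small GTPase gene rnd1.L was at 560 ± 26.8 TPM in endoderm and 149 TPM in epidermal explants (1.77 ± 0.16). The FGF pathway inhibitor spry2.S was higher than in epidermal explants by 3.94 in neural, 4.78 in ventral mesoderm and 3.08 in endoderm explants.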

How the data were processed

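RNA from animal cap explants was sequenced as mRNA libraries. Per the study's methods and the submitters' processing notes the authors aligned reads with STAR 2.6.0 to the Xenopus laevis genome 9.2, and deposited whole-number counts per gene and, in a separate table, TPM from RSEM. The counts are unnormalized. The TPM are corrected for transcript length and relative to each library's RNA, and the TPM table lists 180 entries for the 91 symbols, which were added per symbol. Columns were mapped by the sample names in the table headers, with 0 columns left over.

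A gene needed 15 counts or more in 1 library to be tested, which was done with edgeR 4.0.16 (R 4.3.3; TMM, glmQLFit, glmQLFTest), each of the 51 comparisons on its own libraries. DESeq2 1.42.0, RLE-scaled and library-total scaling, no filter, added homeologs, a fit of all libraries, a replicate block and single libraries left out were alternatives. The tests were checked on simulated data. Fold changes against groups with 0 counts are bounds at 3 counts per library. Counting intervals cover counting error only. Members with a mean of 10 TPM in at least 1 group are described singly, others only as a call, zero or count that a comparison turns on, and the pathway genes are those with such a level and a call, at most 4 per list. The members and lists were chosen with earlier results of these data known, and so were these rules. Genes named below 10 TPM were partly chosen after their values were seen.

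Replicates are described as biological in the study, and the labels number them 1 to 3 in each group. Same-numbered libraries deviated together between stages 9 and 13 in epidermal, neural and endoderm explants (lowest correlations 0.197, 0.212 and 0.339), and not in ventral mesoderm (0.0488). Between successive stages they did so in every step with a correlation of at least 0.393 except the ventral mesoderm step from stage 10.5 to 11 (−0.0546). Libraries of different lineages with the same number did not pair. Homeologs and clustered protocadherins are similar in sequence, so reads could be divided between them. Sequences and coordinates are not used here.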

Additional observations from a re-analysis of the deposited data

Results flagged for a closer look

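The change from stage 9 to 13 differed from that of epidermal explants, in edgeR's interaction test over all genes, in 19 members for endoderm and in pcdh18.L for neural explants (3.44 on the log2 scale). In endoderm the change of 18 members was the larger one. Among those that reached 10 TPM the difference was 5.96 for cdh2.L, 3.0 for cdh2.S, 4.94 for pcdh8.2.L, 4.51 for pcdh8l.L, 3.67 for pcdh18.S, 2.53 for pcdh19, 2.51 for pcdh10.S, 1.82 for pcdh1.S and 0.70 for pcdh1.L. Below that level it was 9.48 for cdh8.S, 7.66 for cdh15.S, 7.38 for pcdh15, 6.98 for cdh13.S, 4.53 for pcdh18.L, 4.51 for pcdh17.L, 4.25 for pcdh11x, 3.73 for pcdh8.S and 3.34 for pcdh8.L. Only pcdh20.L had the smaller change in endoderm (−1.78). The values of cdh8.S, cdh15.S and pcdh15 rest on libraries at or near 0 counts and depend on the prior count used. Under the replicate block cdh15.S (adjusted p = 0.0611), cdh8.S (0.0861), pcdh15 (0.102) and pcdh19 (0.0542) were no longer called.

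In the 5 TPM libraries of ventral mesoderm at stage 11, single libraries lay far from the others for 4 of the 19 members that reached 10 TPM: 82.8 TPM of pcdh7.L, 48.7 TPM of pcdh1.L and 2.27 TPM of cdh2.L were the highest of their group, and 2.13 TPM of pcdha13.L the lowest. For normally spread values chance gives about 1 such library in 20 groups. The 19 members were measured in the same 5 libraries and are not separate groups, so no excess over chance is shown. Replicate numbers of the TPM and count tables do not match at that stage.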

How the results depend on the processing

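Of 70 called fold changes of members that reached 10 TPM, 475 of 490 values under other settings and 393 of 420 with 1 library left out kept their direction and call. The direction turned only with homeologs added together, for cdh3 in epidermal explants (0.05), the row listed as cdh26 without a letter in ventral mesoderm (3.57, where the report gives no direction) and pcdh10 in endoderm against epidermal explants (−0.09). Counts of called members moved more, with the cause not tested. The share of all genes called under each of these settings is not given, so whether the members moved more than other genes is not shown. With DESeq2 the calls over successive stages went from 3 to 29 in epidermal, 4 to 18 in neural and 4 to 25 in ventral mesoderm explants, those against epidermal explants from 18 to 40 in neural and 4 to 34 in ventral mesoderm, and the changes that differed from the epidermal one from 1 to 6 and from 0 to 3. A single fit of all libraries gave 16, 10, 23 and 29 calls over successive stages in epidermal, neural, ventral mesoderm and endoderm, 35 and 32 against epidermal explants in neural and ventral mesoderm, and 6 and 3 differing changes. With homeologs added there were 13 neural calls from stage 9 to 13, 7 neural and 27 endoderm calls over successive stages, 2 ventral mesoderm calls against epidermal explants and 0 differing neural changes, from fewer genes tested. With no filter the neural successive calls were 7, the ventral mesoderm calls against epidermal explants 8 and the differing neural changes 2. Library totals (5 successive epidermal calls, 2 differing neural changes) and 3 of the 5 ventral mesoderm stage 11 libraries (7 successive calls) were chosen after seeing the data.

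With the replicate block the calls over successive stages were 80, 63, 55 and 102 in epidermal, neural, ventral mesoderm and endoderm explants, where the numbers paired the libraries in all steps but the ventral mesoderm step from stage 10.5 to 11. Libraries of different lineages were not paired by number, and there the block gave 11 ventral mesoderm calls against epidermal explants and 2 differing neural changes. With 1 library left out, the neural calls from stage 9 to 13 were 14 to 31. With 1 replicate number left out, calls over successive stages were 0 to 16 in epidermal, 0 to 0 in neural, 0 to 7 in ventral mesoderm and 7 to 12 in endoderm explants. Calls against epidermal explants were then 6 to 28 in neural, 0 to 24 in ventral mesoderm and 59 to 80 in endoderm, endoderm against ventral mesoderm 41 to 65. With single libraries left out, changes differing from the epidermal one numbered 0 to 7 in neural, 0 to 3 in ventral mesoderm and 12 to 18 in endoderm. The summed TPM of the members went from 513 to 1016 in epidermal explants, and the same sum in TMM-scaled CPM, which is not corrected for length, from 840 to 2140.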

Other observations

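Libraries of the same replicate number kept their order over time for some members. The same replicate had the highest scaled count at all 6 stages for 11 of 36 members in epidermal, 8 of 48 in neural and 17 of 44 in endoderm explants, and over the 5 stages with 3 libraries for 2 of 41 in ventral mesoderm. In epidermal explants replicate 1 led for cdh1.S, by a median of 2.02 times the next library. In endoderm replicate 3 led for cdh17.L (liver-intestine cadherin in mammals), by 7.21 times, and for cdh1.L, by 3.08 times. In neural explants replicate 3 led for cdh16.L (kidney-specific cadherin in mammals), by 10.7 times. These were chosen after their values were seen.

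The count and TPM tables followed each other for most members but not all. The correlation over the 24 groups was above 0.9 for 14 of the 19 members that reached 10 TPM and for 44 of 60 tested members with values in both tables, and was lowest for cdh26 (0.11) and cdh15.L (−0.34).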
